A study of Mus musculus with 12 samples.

Results

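Crowded shared hotspots are places on chromosomes 1 to 19 where meiotic recombination started in both the Ankrd31 knockout (KO) and the wild type, and where many hotspots seen only in the knockout lay close by. A shared hotspot is a pair of intervals, 1 from the list of each genotype, that overlap by at least 1 bp. It was called crowded when 10 or more knockout-only hotspots, those with no overlap in the wild type list, were centred within 500 kb of the centre of the wild type interval. This gave 789 crowded pairs among 10760 autosomal pairs. They were set against 1908 sparse pairs with 0 or 1 such neighbour, and 8063 pairs lay between. The members were chosen by the positions of the called intervals in both lists, and so by the same KO and wild type reads that give their strengths. These strengths are therefore descriptions, without tests.

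The 2 KO samples are whole-testis material of adult male mice with the allele Ankrd31 tm1Atot, and the labels name no strain for them. The 2 wild type samples are whole-testis material of adult male C57BL/6JCrl mice. Single-stranded DNA bound by DMC1 was recovered from each with a goat polyclonal antibody. The deposited data are 1 list per genotype, so no spread between animals could be measured, and what follows compares 2 lists. The series also holds H3K4me3 and input samples from mice of 13 days, not analysed here.

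ANKRD31 belongs to the protein assemblies on meiotic chromosome axes from which double-strand breaks are made. In the mouse, the histone methyltransferase PRDM9 normally places these breaks at its own DNA motif, away from promoters, and where PRDM9 guidance is lost, breaks are known to move to promoters and other H3K4me3-marked sites. Break formation is also known to be under local control: the ATM kinase limits further breaks near one already made, and hotspots on a chromosome are thought to draw on shared axis factors. The strength of a hotspot in a DMC1 map reflects both how often it is broken and how long DMC1 stays on the break. An assay of whole testis gives the sum over cells.

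Most neighbours that make a pair crowded sat at genes, so the start regions of genes under 4 of them are shown. They are the promoters under the strongest gene-end neighbour matched in the RefSeq promoter table (GRCm38.p6) for each of the 4 pairs that lead the ranking by number of neighbours. Each runs from 250 bases before to 50 after the gene start and is written 5′ to 3′. Capitals mark the GC box GGGCGG, a binding motif of Sp family factors, and its reverse complement CCGCCC.
Rab3ip promoter, chr10:116950404-116950703, minus strand: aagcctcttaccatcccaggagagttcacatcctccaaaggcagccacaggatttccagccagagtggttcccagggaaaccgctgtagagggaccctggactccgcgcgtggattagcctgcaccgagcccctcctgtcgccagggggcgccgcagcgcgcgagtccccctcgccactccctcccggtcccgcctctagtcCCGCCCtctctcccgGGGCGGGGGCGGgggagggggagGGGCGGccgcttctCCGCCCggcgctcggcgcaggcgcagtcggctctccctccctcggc
S100pbp promoter, chr4:129189427-129189726, minus strand: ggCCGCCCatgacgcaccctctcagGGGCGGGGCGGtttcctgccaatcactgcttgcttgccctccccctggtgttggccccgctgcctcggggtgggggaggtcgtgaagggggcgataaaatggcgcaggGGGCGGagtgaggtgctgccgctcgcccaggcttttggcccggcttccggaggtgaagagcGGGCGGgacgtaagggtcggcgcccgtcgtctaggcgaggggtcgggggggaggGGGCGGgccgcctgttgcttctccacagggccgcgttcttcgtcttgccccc
Kpnb1 promoter, chr11:97187843-97188142, minus strand: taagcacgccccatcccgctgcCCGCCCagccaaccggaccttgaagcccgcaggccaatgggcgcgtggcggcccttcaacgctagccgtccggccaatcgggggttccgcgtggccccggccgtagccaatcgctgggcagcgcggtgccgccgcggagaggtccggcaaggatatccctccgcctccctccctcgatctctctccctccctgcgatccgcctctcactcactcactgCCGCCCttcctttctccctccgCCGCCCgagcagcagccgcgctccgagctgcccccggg
Sumo2 promoter, chr11:115536181-115536480, minus strand: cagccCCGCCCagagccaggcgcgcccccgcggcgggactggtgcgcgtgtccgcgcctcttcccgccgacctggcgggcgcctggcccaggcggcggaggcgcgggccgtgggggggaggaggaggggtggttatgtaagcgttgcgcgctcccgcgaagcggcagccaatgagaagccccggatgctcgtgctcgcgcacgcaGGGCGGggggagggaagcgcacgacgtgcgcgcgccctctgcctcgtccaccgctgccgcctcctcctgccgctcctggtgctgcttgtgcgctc

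The Rab3ip promoter, of a gene for a Rab guanine nucleotide exchange factor, lay under a knockout-only hotspot of strength 366. Strength is reads minus background, in reads. The gene start was 48 bp from the centre of that hotspot and 5 GC boxes were found. S100pbp had a hotspot of strength 129 centred 156 bp from its start, and 6 boxes. Kpnb1, which encodes importin beta, had a hotspot of strength 228 centred 10 bp from its start, and 3 boxes. Sumo2, which encodes a small ubiquitin-like modifier, had a hotspot of strength 418 centred 180 bp from its start, and 2 boxes. The boxes were common in such promoters: of 1962 promoter windows overlapped by a knockout-only hotspot near a crowded pair, 76.2% held GGGCGG on either strand. The share was 75.8% for 5160 windows under any autosomal knockout-only hotspot, and 47.0% for all 20085 autosomal windows matched. The median number of CG dinucleotides in 300 bases was 25, 25 and 14 in the same 3 sets. CCAAT on either strand was in 39.7%, 39.1% and 38.1% of them, and TATAAA on either strand in 5.20%, 5.29% and 12.7%. The set near crowded pairs is part of the set under any knockout-only hotspot. A match of letters is no evidence of a bound factor.

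Within 500 kb of crowded pairs lay 3031 knockout-only hotspots, 31.3% of all on autosomes, and within 500 kb of sparse pairs 618. The neighbours of crowded pairs were at gene ends more often: 1693 (55.9%, exact 95% binomial interval 54.1 to 57.6) had their centre 1 kb or less from either end of some protein-coding gene, against 179 (29.0%, 25.4 to 32.7) of those near sparse pairs and 47.0% of all 9688. Intervals here cover counting error only. On the 18 autosomes used for gene starts, 82.1% of the gene-end neighbours of crowded pairs were within 1 kb of an annotated start. In strength, all knockout-only neighbours together were much alike, with a median of 73 near crowded and 69 near sparse pairs. Those at gene ends had medians of 86 near crowded and 97 near sparse pairs. A crowded pair had a median of 7 neighbours at gene ends and 5 elsewhere, and 6 crowded pairs had none at a gene end.

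The crowded pairs themselves differed from sparse ones in their surroundings more than in their shape. Crowded pairs lay inside protein-coding genes in 61.7% of cases (58.2 to 65.1), against 34.9% (32.7 to 37.0) of sparse pairs. Over all autosomal pairs the share was 48.9%. A median of 29 gene ends stood within 500 kb of a crowded pair, against 3 for a sparse pair and 12 over all autosomal pairs. Only 35 crowded pairs (4.44%, 3.11 to 6.12) were themselves centred within 1 kb of a gene end, so the crowded hotspots were mostly not promoter hotspots. The number for sparse pairs was 17 (0.891%, 0.520 to 1.42), and for all autosomal pairs 280 (2.60%). Interval widths were nearly equal, with medians of 1544 bp in KO and 1760 bp in wild type for crowded pairs, and of 1568 bp in KO and 1766 bp in wild type for sparse pairs. The centres of the intervals in KO and wild type differed by a median of 50 bp in crowded pairs and 51 bp in sparse pairs. Crowded pairs lay closer to a chromosome's outermost annotated or called position, at a median of 18.8 Mb against 33.3 Mb for sparse pairs and 32.0 Mb for all autosomal pairs. That position is not set alike on every chromosome. A crowded pair starting at 9941940 on chromosome 1 was 9.94 Mb from it, and one starting at 6022386 on chromosome 2 was 2.97 Mb from it.

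Crowded pairs were unevenly spread. Chromosome 11 had 163 and chromosome 10 had 150, together 39.7% of the crowded pairs but 12.7% of all pairs. Chromosomes 13 and 14 had 1 and 3. Because neighbouring pairs often share the same knockout-only hotspots, they were joined into clusters wherever their windows shared at least 1. This gave 186 clusters, of which 42 held a single pair, and the median cluster held 3.

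At like wild type strength, crowded hotspots were the weaker ones in the knockout. Their median strength was 115 in KO and 190 in wild type, while sparse pairs had medians of 174 in KO and 168 in wild type. The middle of the crowded distribution, from the first to the last quartile, ran from 66 to 194 in KO and from 96 to 418 in wild type. For the sparse pairs it ran from 96 to 325 in KO and from 88 to 371 in wild type. Relative strength was then taken as the strength over the median autosomal shared hotspot of the same list, 151 in KO and 182 in wild type. The median log2 ratio of KO over wild type relative strength was -0.60 for crowded pairs and 0.28 for sparse pairs. Below 0 were 572 of 789 crowded pairs (72.5%) and 729 of 1908 sparse pairs (38.2%), beside 5434 of all 10760 autosomal pairs (50.5%).

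Of the crowded pairs, 265 were over 2-fold lower in KO (33.6%, 30.3 to 37.0), beside a background of 15.9% over all autosomal pairs. Those over 2-fold higher numbered 39 (4.94%, 3.54 to 6.70), beside a background of 12.4%. Sparse pairs had 174 (9.12%) lower and 363 (19%) higher by the same measure. On strengths as deposited, without setting the lists to their medians, 342 crowded pairs (43.3%) passed 2-fold downwards and 19 (2.41%) upwards, beside backgrounds of 22.6% and 6.99%. On that scale the median log2 ratio was -0.87 for crowded pairs, 0.02 for sparse pairs and -0.28 for all pairs. Crowded pairs were 15.5% of all pairs over 2-fold lower, and 789 of the 10760 autosomal pairs. More of the crowded pairs sat near the weakest values that were called: 48 (6.08%) had a KO strength at or below 40, the 5th percentile of the autosomal KO list, against 20 sparse pairs (1.05%). Over all autosomal pairs the share was 1.96%.

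Since the ratio fell with wild type strength in both kinds of pairs, all pairs were divided into 10 equal bins of wild type strength and compared within bins. The crowded median lay below the sparse median in 10 of 10 bins. Weighted by the number of crowded pairs, the difference in median log2 ratio was -0.76, a 1.70-fold lower knockout strength at like wild type strength. With bins of the number of gene ends within 500 kb added it was -0.36. Such bins do not make these numbers equal. In the weakest bin, where wild type strength was 24 to 59, the median KO strength was 52 for crowded pairs and 72 for sparse pairs (log2 difference -0.53). In the fifth bin, with wild type strengths of 138 to 182, the KO medians were 84 for crowded and 175 for sparse pairs (-1.02). In the strongest bin, from 752 on, they were 354 for crowded and 684 for sparse pairs (-0.81), and 78.2% of crowded and 24.7% of sparse pairs there were over 2-fold lower. At the wild type strengths of the crowded pairs, 9.98% of sparse pairs were over 2-fold lower.

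**Figure D1:**
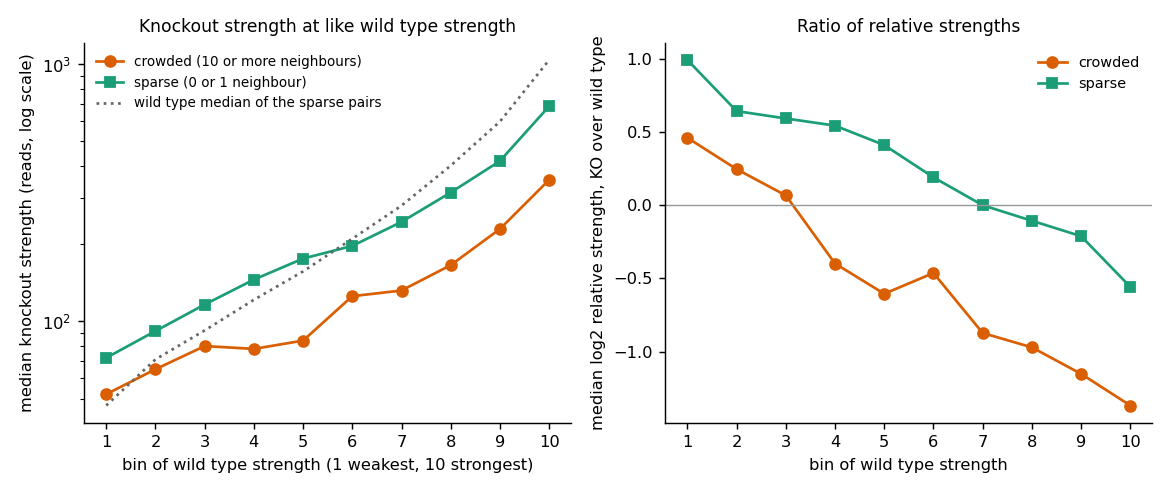
Left, median knockout strength in reads (log axis) of crowded and sparse pairs in 10 bins of wild type strength, with the wild type median as a dotted line; right, the median log2 ratio of relative strengths in the same bins. Crowded pairs lie below sparse pairs in all 10 bins, with differences from -1.02 to -0.40.

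The difference was seen chromosome by chromosome. On the 17 autosomes with 10 or more crowded pairs, the crowded median log2 ratio was below the sparse one on 17, by -1.46 (chromosome 15) to -0.33 (chromosome 18), and within 3 bins of wild type strength by -1.31 to -0.49. On chromosome 10, crowded pairs had a median of 93.5 in KO and 176 in wild type, and sparse pairs had 192 in KO and 180 in wild type. On chromosome 11 crowded pairs had 86 in KO and 144 in wild type, and the 20 sparse pairs had 131 in KO and 151 in wild type. The single crowded pair of chromosome 13 was higher in KO (log2 ratio 1.15), and the 3 of chromosome 14 had a median of 0.11.

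**Figure D2:**
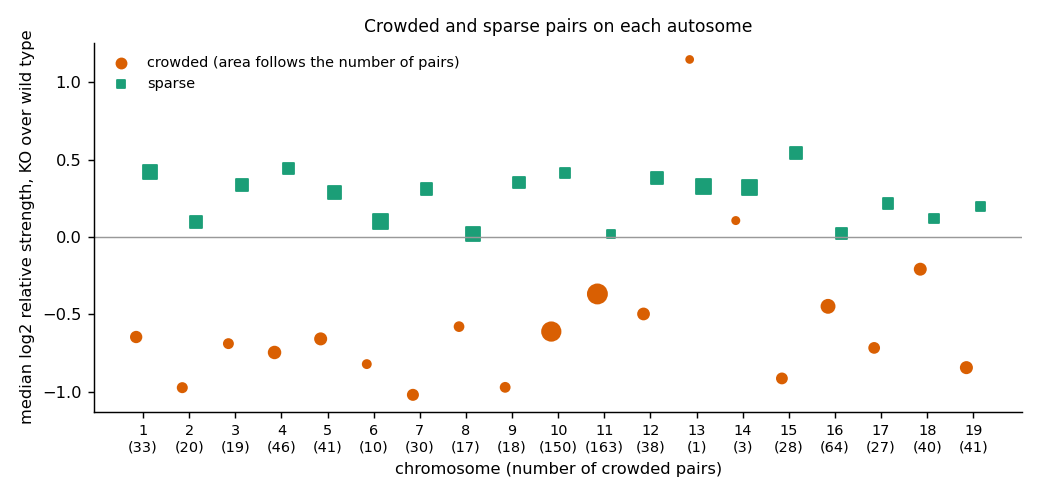
Median log2 ratio of relative strength, KO over wild type, for crowded (circles) and sparse (squares) pairs on each autosome, with the number of crowded pairs under each chromosome. Circles lie below squares on the 17 chromosomes with 10 or more crowded pairs, and above on chromosome 13, which has 1.

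With more neighbours the ratio was lower. For this, each log2 ratio was adjusted by subtracting the median of its bin of wild type strength. The adjusted median was 0.26 for 680 pairs with no neighbour and 0.29 for 1228 pairs with 1. It was 0.15 with 2 to 3 neighbours, -0.03 with 4 to 5, -0.18 with 6 to 7 and -0.25 with 8 to 9. Within the crowded pairs it was -0.40 with 10 to 11 neighbours (428 pairs), -0.56 with 12 to 14 (238 pairs), -0.61 with 15 to 17 (88 pairs) and -0.85 with 18 to 25 (35 pairs). Median strengths in those 35 pairs were 78 in KO and 164 in wild type, and 40% were over 2-fold lower. Just inside the threshold, 259 pairs with 10 neighbours had medians of 118 in KO and 184 in wild type and an adjusted median of -0.41. Just outside it, 412 pairs with 9 neighbours had 121 in KO and 183 in wild type and an adjusted median of -0.32. The decline holds for the merged groups and not at every single count, as the 169 pairs with 11 neighbours had -0.37.

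**Figure D3:**
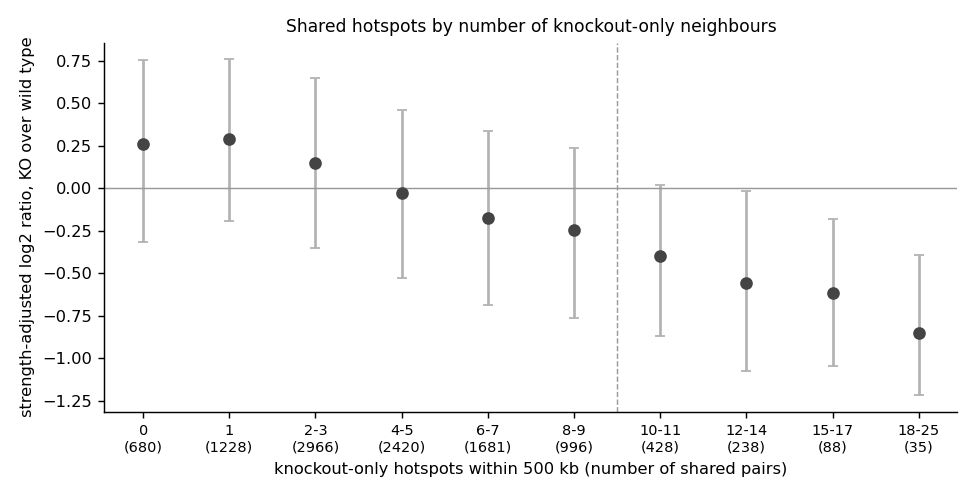
Median and interquartile range of the strength-adjusted log2 ratio, KO over wild type, by number of knockout-only hotspots within 500 kb, with the number of pairs in brackets; the dashed line marks where pairs are called crowded. The median declines from 0.29 at 1 neighbour to -0.85 at 18 to 25 neighbours.

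How the difference falls with distance was read from rings around the wild type centre, by a linear fit of the adjusted log2 ratio of all 10760 pairs on the number of knockout-only hotspots in 7 rings together. Each hotspot within 25 kb went with a change of -0.12, or -8.10% in the ratio (-0.13 to -0.12 when any 1 autosome was left out). From 25 to 50 kb the change was -0.10 and from 50 to 100 kb -0.11. From 100 to 250 kb it was -0.055, from 250 to 500 kb -0.035, from 500 to 1000 kb -0.017 and from 1000 to 2000 kb -0.0023 per hotspot. Over all knockout-only hotspots together, the change per hotspot was thus about even up to 100 kb and smaller in each further ring. Beyond 1000 kb it was under 0.2%. Hotspots at gene ends and elsewhere, taken apart below, did not share this course. From 1000 to 2000 kb their changes had opposite signs. A wide ring holds more hotspots, a mean of 8.47 per pair from 1000 to 2000 kb against 0.179 within 25 kb. Single windows were also compared, with whole-number limits for the dense and thin pairs set as near as possible to the crowded and sparse shares. The matched difference was -0.35 for 25 kb, -0.43 for 50 kb, -0.61 for 100 kb, -0.75 for 250 kb, -0.76 for 500 kb, -0.72 for 1000 kb and -0.70 for 2000 kb. These sizes are not fully comparable. At 25, 50 and 100 kb the thin set, with no neighbour in the window, held 8996, 7321 and 5058 pairs against 1908 at 500 kb, and the dense set at 25 kb held 158 against 789.

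Distance also separated the crowded pairs from each other. With the nearest knockout-only hotspot within 25 kb, 343 crowded pairs had median strengths of 109 in KO and 198 in wild type and an adjusted median of -0.57. With the nearest at 25 to 50 kb it was -0.53 (226 pairs), at 50 to 100 kb -0.42 (178 pairs) and at 100 to 250 kb -0.28 (42 pairs). Among pairs with 0 to 5 neighbours in 500 kb, the same steps were -0.08, -0.03, 0.07 and 0.16, and 0.23 when the nearest was 250 to 500 kb away.

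Values differed by the kind of neighbour. Knockout-only hotspots at gene ends, with those elsewhere in the same fit, went with a change of -0.27 each within 25 kb, -0.16 from 25 to 50 kb, -0.16 from 50 to 100 kb, -0.083 from 100 to 250 kb and -0.036 from 250 to 500 kb. Those elsewhere went with 0.030 within 25 kb, -0.026 from 25 to 50 kb, -0.038 from 50 to 100 kb, -0.018 from 100 to 250 kb and -0.028 from 250 to 500 kb. From 500 to 1000 kb the changes were -0.0245 at gene ends and -0.0081 elsewhere. From 1000 to 2000 kb they were -0.015 at gene ends (-1.03% in the ratio) and 0.0070 elsewhere. Knockout-only hotspots at gene ends are the stronger ones, with medians of 86 at gene ends and 61 elsewhere near crowded pairs. Among crowded pairs alone, 189 with 9 or more gene-end neighbours had an adjusted median of -0.66, at a median of 14 neighbours in all. Those with 7 to 8, 5 to 6 and 0 to 4 gene-end neighbours had -0.42, -0.46 and -0.41, at a median of 11 neighbours in each group. At an equal median number of neighbours, the adjusted median thus showed little change with the number at gene ends. The share over 2-fold lower, not adjusted for wild type strength, was 34.3%, 31.4% and 26.1% in the same order. Their wild type medians were 203, 180 and 165.

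**Figure D4:**
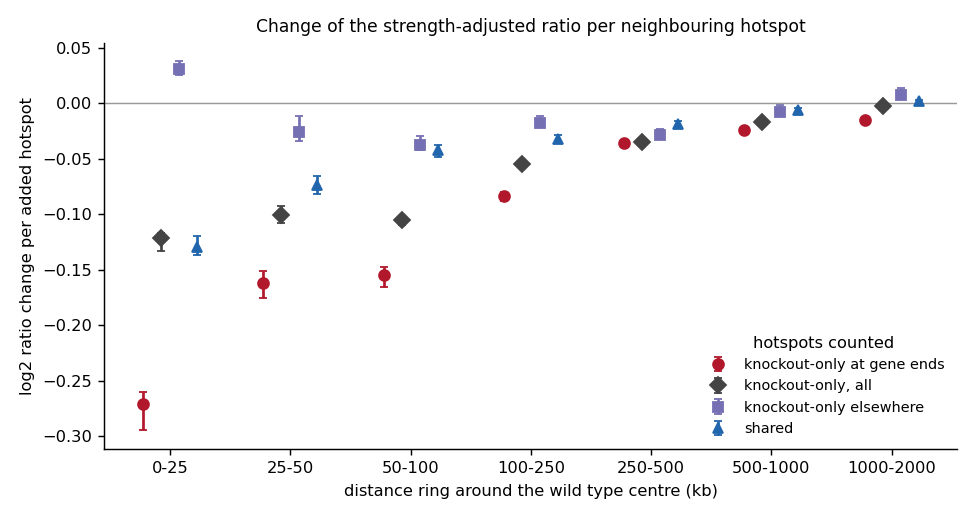
Change of the strength-adjusted log2 ratio per neighbouring hotspot in 7 distance rings, for knockout-only hotspots at gene ends, all knockout-only hotspots, those elsewhere, and shared hotspots; bars give the range when 1 autosome is left out. Gene-end neighbours within 25 kb stand at -0.27 and those elsewhere at 0.030, and all kinds lie within 0.02 of 0 from 1000 to 2000 kb.

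Gene density moved with crowding. Across the 10760 pairs the number of knockout-only neighbours and of gene ends within 500 kb had a Spearman correlation of 0.56. The adjusted ratio had one of -0.27 with neighbours and of -0.30 with gene ends, over pairs that share windows and libraries. With bins of gene ends within 500 kb beside those of wild type strength, the matched difference between crowded and sparse pairs was -0.36, against -0.76 without them. In 4 of 5 groups of pairs binned by number of gene ends the crowded median was the lower one. Pairs within a group can still differ in that number, most in the group with 26 to 133. Among pairs with 26 to 133 gene ends in the window, 444 crowded pairs had an adjusted median of -0.56 and 129 sparse pairs of -0.16. Among those with 9 to 15, 120 crowded pairs had -0.34 and 193 sparse pairs 0.08. The exception was the group with 0 to 3 gene ends, where 3 crowded pairs had 0.67 and 989 sparse pairs 0.45. With gene ends of each ring in the fit, the change per knockout-only hotspot was -0.11 within 25 kb and -0.034 from 250 to 500 kb. These 2 rings moved little, from -0.12 and -0.035. Other rings moved more, to -0.077 from 25 to 50 kb, -0.082 from 50 to 100 kb and -0.046 from 100 to 250 kb. From 500 to 1000 kb it went from -0.017 to -0.0097, and from 1000 to 2000 kb from -0.0023 to 0.00080. What part of the difference goes with gene density and what part with the knockout-only hotspots cannot be told apart in full, since the numbers of both move together.

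Other kinds of neighbours also went with lower ratios. Counted in the same rings, each shared hotspot within 25 kb went with a change of -0.13 and each wild-type-only hotspot with -0.31. From 1000 to 2000 kb the changes were 0.0019 and -0.029. Wild-type-only hotspots are those with no overlap in the KO list, so their count is drawn from the same KO reads as the ratio. Crowded pairs had a mean of 1.59 wild-type-only hotspots within 500 kb, against 0.592 for sparse pairs, and a median of 5 shared ones against 4. With shared and wild-type-only hotspots in the fit, the change per knockout-only hotspot within 25 kb was -0.12. Further out it moved more, from -0.035 to -0.025 at 250 to 500 kb and from -0.017 to -0.012 at 500 to 1000 kb. At 1000 to 2000 kb it moved from -0.0023 to -0.00029. Background reads made up a median of 6.22% of reads in KO and 4.50% in wild type at crowded pairs, and 4.71% in KO and 5.67% in wild type at sparse pairs. Their part in the result was not tested beyond the fit on read counts without background subtraction, where the matched difference was -0.74.

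Wild type hotspots in crowded surroundings were also more often missing from the knockout list. Of 1062 wild type hotspots with 10 or more knockout-only neighbours, 789 (74.3%, 71.6 to 76.9) had a knockout partner. Of 2246 with 0 or 1, 1908 did (85.0%, 83.4 to 86.4). The difference at like wild type strength was -9.61 percentage points and came from the weak hotspots. In the weakest of 10 bins, with wild type strengths of 18 to 51, 38.1% of crowded and 59.2% of sparse hotspots had a partner. In the third bin, from 68 to 87, 53.6% of crowded and 77.0% of sparse hotspots did. From a wild type strength of 200 on, 95.2% or more of both kinds had one in each bin. Pairs that dropped below the calling threshold in KO are not among the 789, so the ratios above leave them out.

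Summed over whole neighbourhoods, crowded windows held a slightly larger share of the KO list than of the wild type list, while their shared hotspots held a smaller one. The windows of 500 kb on both sides of crowded pairs covered 284 Mb and held 16.7% of the autosomal strength of the KO list and 15% of that of the wild type list. Within them, shared hotspots held 7.80% in KO and 14.1% in wild type, while knockout-only hotspots held 8.95% of the KO list. A smaller share in KO was also seen over all autosomes, where shared hotspots held 71.6% in KO and 95.6% in wild type. All autosomal knockout-only hotspots held 28.4% of the KO list. Covered length was 7672 kb at a mean strength of 122 in KO, and 3348 kb at a mean of 282 in wild type. The windows of sparse pairs covered 786 Mb and held 26.6% in KO and 29.3% in wild type, with 24.9% in KO and 28.3% in wild type from shared hotspots and 1.73% in KO from knockout-only hotspots, at mean strengths of 224 in KO and 281 in wild type. The rule chose crowded windows for their knockout-only hotspots, and these sums depend on how many intervals were called.

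The longest crowded stretch was on chromosome 10, from 115015131 to 123238098 (mm10), where 50 crowded pairs formed 1 cluster over 8.22 Mb. With its flanking 500 kb it held 137 knockout-only hotspots with a median strength of 55. Its 56 shared hotspots had a median strength of 67.5 in KO and 170 in wild type, and summed to 7453 in KO and 17141 in wild type. The knockout-only hotspots summed to 11243. Of the 50 crowded pairs, 46 had a log2 ratio below 0, and the median was -0.93. A second stretch on this chromosome, from 20373895 to 24647992, had 32 crowded pairs, 22 of them below 0, with a median of -0.31. On chromosome 11, 27 crowded pairs from 3463290 to 6772023 had a median of -0.96, with 25 below 0. Not every cluster was lower: 12 crowded pairs on chromosome 11 from 101275982 to 102940523 had a median of 0.09, and 4 of the 12 were below 0. Of the 56 clusters with 5 or more pairs, 48 had a median below 0, over a range of -1.70 to 0.53. Within clusters the pairs still differed widely, with an SD of 0.84 in log2 ratio against 0.90 over all crowded pairs.

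**Figure D5:**
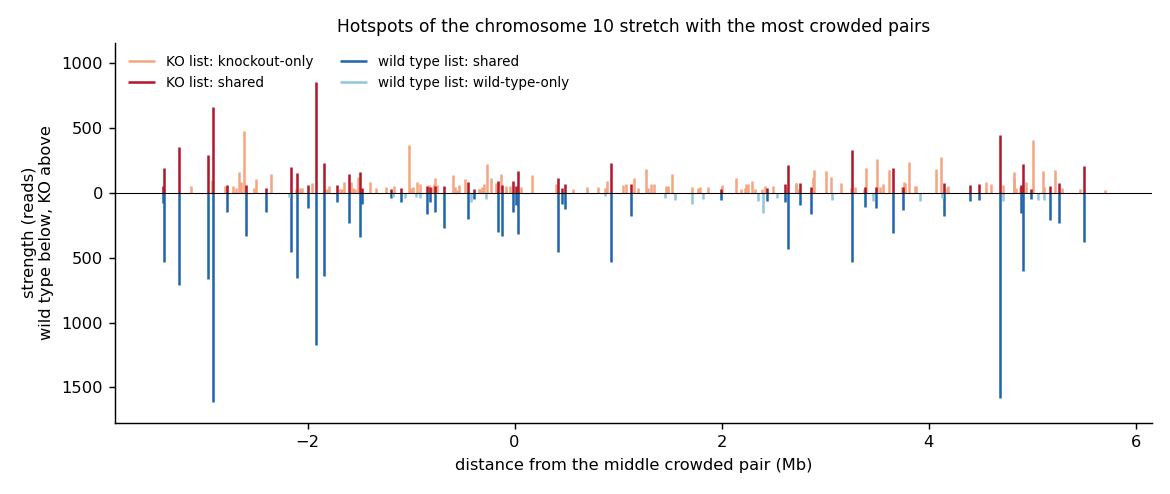
Strength in reads of each hotspot in the chromosome 10 stretch, KO above and wild type below the line, by distance in Mb from the middle crowded pair. Knockout-only hotspots are many and mostly low (median 55), and shared hotspots are shorter above the line than below it.

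By number of neighbours, the leading pairs of separate clusters were mostly modest hotspots. The pair with 25 neighbours lay 252 bp from an end of Myrfl on chromosome 10, from 116775968 to 116777626, with a strength of 28 in KO and 40 in wild type. Both values are near the weakest called, so its log2 ratio of -0.25 is imprecise. A pair inside Bsdc1 on chromosome 4 had 21 neighbours, 124 in KO and 307 in wild type (-1.04). One of its neighbours sat at an end of Hdac1, a histone deacetylase gene, with a strength of 128. On chromosome 11, a pair 1791 bp from Scrn2 had 19 neighbours, 102 in KO and 530 in wild type (-2.11, 4.31-fold lower). The Kpnb1 hotspot shown above was 160 kb from it. Also with 19 neighbours, a pair inside Grb2, the adaptor that links receptor tyrosine kinases to Ras, had 97 in KO and 465 in wild type (-1.99). The Sumo2 hotspot lay 141 kb away, and another of strength 237 sat at an end of Wbp2. A pair inside Bcl7c on chromosome 7, whose product belongs to chromatin remodelling complexes, had 54 in KO and 122 in wild type (-0.91). Its strongest gene-end neighbours were at Fbrs (217) and at Srcap, a chromatin remodeller gene (168). In these 5 pairs the KO value was lower each time.

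The other 5 pairs of this ranking had 18 neighbours each. A pair 38302 bp from Zdhhc17, a palmitoyltransferase gene on chromosome 10, had 545 in KO and 1427 in wild type (-1.12). Its neighbours at Phlda1 and at E2f7, a repressor of cell cycle genes, had strengths of 472 and 371. A pair inside Ppp6r2, a phosphatase subunit gene on chromosome 15, had 411 in KO and 650 in wild type (-0.39). For its wild type strength that ratio was above the median, with an adjusted value of 0.18. Its neighbours included one at Mov10l1, a gene of the germ line piRNA pathway (159). A pair near Septin12, a sperm septin gene on chromosome 16, had 113 in KO and 168 in wild type (-0.30). A pair at an end of the ciliary gene Mks1 on chromosome 11 had 88 in KO and 160 in wild type (-0.59). A pair inside Pcx, the pyruvate carboxylase gene on chromosome 19, had 59 in KO and 139 in wild type (-0.97).

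The strongest crowded hotspots of the wild type all fell in raw strength, by unequal amounts. The pair inside Strn, the striatin gene on chromosome 17 from 78649965 to 78652319, had 749 in KO (exact Poisson interval of the reads less background 696 to 805) and 2648 in wild type (2546 to 2752), a log2 ratio of -1.55. The pair at an end of Arf6, a small GTPase gene on chromosome 12 from 69374120 to 69376488, had 278 in KO (246 to 313) and 2568 in wild type (2468 to 2670), a log2 ratio of -2.94 or 7.66-fold lower, with 8 of its 10 neighbours at gene ends. A pair inside Phc3, a Polycomb gene on chromosome 3, had 620 in KO and 2438 in wild type (-1.71). A pair inside Trrap, whose product serves histone acetyltransferase complexes, had 358 in KO and 2341 in wild type (-2.44). By contrast, a pair 14043 bp from Tomm7 on chromosome 5 had 1066 in KO and 2377 in wild type (-0.89), with 12 neighbours, the nearest 7.63 kb away. That loss was near the median of the strongest bin, with an adjusted ratio of 0.01. The bin is wide, with wild type strengths of 752 to 4557.

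The strongest sparse hotspots of the wild type give the scale. Their wild type strengths ran somewhat higher, from 2519 to 3024 against 2341 to 2648 for the crowded ones. The 5 strongest had 2016 in KO and 3024 in wild type (inside Cadm2 on chromosome 16, log2 ratio -0.32), 915 in KO and 2956 in wild type (chromosome 16, -1.42), 1260 in KO and 2939 in wild type (chromosome 13, -0.95), 1472 in KO and 2628 in wild type (chromosome 15, -0.57) and 999 in KO and 2519 in wild type (chromosome 2, -1.06). All 5 had a higher KO strength than 4 of the 5 strongest crowded pairs, and the Tomm7 pair exceeded 2 of them.

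The largest decreases among stronger crowded pairs, beside Arf6, were inside Zfp568, a KRAB zinc finger gene on chromosome 7 (145 in KO and 1280 in wild type, 7.32-fold lower), and Ptp4a2, a phosphatase gene on chromosome 4 (148 in KO and 1119 in wild type, 6.27-fold). Next were pairs inside Kmt2d, an H3K4 methyltransferase gene on chromosome 15 (43 in KO and 322 in wild type, 6.21-fold), and Donson, a replication fork gene on chromosome 16 (198 in KO and 1354 in wild type, 5.67-fold). The largest increases among these stronger pairs were small by comparison. They lay inside Rin3 (363 in KO and 193 in wild type, 2.27-fold higher) and Papln (420 in KO and 229 in wild type, 2.21-fold) on chromosome 12. Others lay outside Cdc5l, a splicing factor gene on chromosome 17 (381 in KO and 237 in wild type, 1.94-fold), outside Shank3 (354 in KO and 227 in wild type, 1.88-fold), and inside Crtac1 (288 in KO and 188 in wild type, 1.85-fold). The Shank3 pair had 14 neighbours, as many as the Donson pair, which went the other way. These pairs were chosen for their ratios, which are therefore descriptions, and the choice was held to the stronger pairs. Larger increases occurred among weaker crowded pairs, such as 260 in KO and 69 in wild type on chromosome 7 (log2 ratio 2.18).

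Some gene families were found near crowded pairs about as often as genes at large. Of 20665 autosomal protein-coding genes, 5137 (24.9%) had an end within 500 kb of a crowded pair and 3510 (17%) within 500 kb of a sparse pair. Zfp zinc finger genes were near crowded pairs in 105 of 388 cases (27.1%) and near sparse pairs in 52. Cytosolic ribosomal protein genes were near crowded pairs in 28 of 87 (32.2%, 22.6 to 43.1) and near sparse pairs in 5, and proteasome genes near crowded pairs in 14 of 39 (35.9%, 21.2 to 52.8) and near sparse pairs in 2. Replication-dependent histone genes were near crowded pairs in 23 of 66 (34.8%) and near sparse pairs in 0. The intervals of the ribosomal and proteasome shares include the share of all genes. Genes of a clustered family share windows and are not independent.

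Large receptor families stood the other way round. Olfactory receptor genes were near crowded pairs in 63 of 1104 cases (5.71%) and near sparse pairs in 334 (30.3%). Vomeronasal receptor genes were near crowded pairs in 4 of 352 (1.14%) and near sparse pairs in 133. Keratin genes were near crowded pairs in 0 of 53 and near sparse pairs in 26. Hox genes lay near crowded pairs in 10 of 39 and near sparse pairs in 9. Protocadherin genes were near crowded pairs in 21 of 57 and near sparse pairs in 0, though 0 of the 57 had a knockout-only hotspot at either end, against 24.8% of all genes. Defensin genes were near crowded pairs in 3 of 71 and near sparse pairs in 0.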

How the data were processed

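The 2 deposited DMC1 hotspot lists hold 22034 KO and 13480 wild type intervals on mm10, without the Y chromosome. Per the submitters' processing notes, MACS2, BWA, Bowtie2 and CASAVA were among the tools, though their roles and versions are not given in the sources used here. Labels also leave out whether the 2 samples of a genotype were pooled, so each list is 1 sample and no p-value was computed. Per the file headers, the read count of a hotspot is a whole number of signal reads. The deposited background falls on rounded steps of 2.5 reads, and the deposited strength is a signal equal to reads minus background in 100% of rows. The deposited percent strength is the percent of the summed strength of a list. Reads in autosomal hotspots summed to 3538576 in KO and 3783556 in wild type. Total library depth was not used here.

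Intervals were paired, counted in windows and compared with Python 3.11.15, numpy 2.4.6 and pandas 2.3.3. The routines were tested on simulated strengths at the real positions. Bins needed 3 pairs of each kind. Genes came from RefSeq for GRCm38.p6, the assembly that mm10 is built on. Promoter sequences matched 16457 of 20154 genes on the 18 autosomes used for gene starts, and chromosome 18 was not used for them. Members, gene lists and tests were chosen with earlier results of these data known. Regions named are the 10 crowded pairs with most neighbours in separate clusters, the 5 strongest crowded and sparse pairs in wild type, and the 5 largest decreases and increases among crowded pairs above the median wild type strength. Beside the first 10, gene-end neighbours were taken from their 3 strongest. The clusters described were chosen after their values were seen. Start positions are as the lists give them.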

Additional observations from a re-analysis of the deposited data

How the results depend on the processing

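No paired analysis was possible because each genotype has 1 list and no value per animal, and no replicate could be left out. Main values were 789 crowded pairs, a matched difference of -0.76, 33.6% of crowded pairs over 2-fold lower, -9.61 percentage points with a partner and -0.12 per neighbour within 25 kb. Leaving out each autosome in turn gave matched differences of -0.79 to -0.74, shares of 32.7% to 34.5% and -11.2 to -8.24 points. An overlap of 50% of both intervals gave 801 crowded pairs and -0.78. Counting stronger knockout-only hotspots alone left 60 crowded pairs, with 38.3% lower. A window of 250 kb left 62 (41.9%) and one of 1000 kb gave 4132 (22.1%, matched difference -0.45), while too few pairs reached 10 neighbours in 25, 50 or 100 kb for these windows to be run. The 2000 kb window gave 8793 crowded pairs (16.9% lower) and turned the matched difference to 0.84, against 55 sparse pairs, the few left under that count. With crowding from 5, 15 and 20 neighbours there were 4628, 123 and 12 pairs, 22.7%, 37.4% and 25% of them lower, and differences of -0.51, -0.98 and -0.99. The stronger 80% of pairs gave -0.84 and 41.0%. Strength and percent strength as deposited gave shares of 43.3% and 41.2%. Bins of the geometric mean of both strengths gave -0.87, bins with gene ends -0.36, bins with wild type hotspots -0.67, and 1 pair per cluster -0.86. Chosen after seeing the data, windows of 25, 50 and 100 kb with limits set as near as whole numbers allow to the same shares of pairs gave -0.35, -0.43 and -0.61, and bins with shared and wild-type-only hotspots -0.64. Per neighbour within 25 kb, summed strength gave -0.095, gene ends as a further term -0.11 and rings of wild-type-only hotspots -0.31. The causes of these shifts were not tested. The other alternatives run kept the direction of each difference.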

Other observations

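The loneliest shared hotspots did not follow the trend with distance. The strength-adjusted median log2 ratio was 0.28 for 537 pairs whose nearest knockout-only hotspot was 500 to 1000 kb away and 0.26 for 112 pairs at 1000 to 2000 kb. For the 31 pairs with none within 2000 kb it was -1.05, and 24 of the 31 were below 0. These pairs were chosen after their values were seen. They lay a median of 2.11 Mb from a chromosome's outermost annotated or called position, against 32.0 Mb for all autosomal pairs. For many of them the 2000 kb window thus ran past that position on 1 side. The part of this place in their values was not tested. By chromosome, the number below 0 was 5 of 7 on chromosome 1, 1 of 1 on chromosome 4, 0 of 2 on chromosome 6, 0 of 1 on chromosome 7, 4 of 5 on chromosome 8, 8 of 9 on chromosome 13, 5 of 5 on chromosome 14 and 1 of 1 on chromosome 17.

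The strongest hotspot of the whole KO list was among these lone pairs. It lay inside Enpp6, a choline phosphodiesterase gene on chromosome 8, from 47002632 to 47005176 in the KO list (mm10), with 7346 in KO and 405 in wild type, 21.9-fold higher in relative strength. It had no knockout-only hotspot within 2 Mb. The other 4 lone pairs of that chromosome, all within 2 Mb of it, were weaker in KO. One inside Stox2 had 43 in KO and 385 in wild type, and one outside Ing2 had 70 in KO and 665 in wild type. One outside Dctd had 53 in KO and 135 in wild type, and one inside Tenm3 had 128 in KO and 691 in wild type. The labels name no strain for the KO mice, and the part of strain in these values was not tested.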
